A study of Homo sapiens with 8 samples.

Results

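Kinesins are motor proteins that use ATP to move along microtubules or to take microtubules apart. The kinesin genes were examined here in CFPAC-1, a cell line established from a human ductal adenocarcinoma of the pancreas, by bulk RNA sequencing of 8 libraries. Members were the rows of the count table with a KIF number symbol, with or without a letter from A to C, or KIFC1 to KIFC3. This gave 42 genes of 58870 in the table. They were divided by known function into 14 mitotic kinesins, 15 transport kinesins and 13 others, which act in cilia, in signalling or on microtubule ends. The symbol rule leaves out CENPE, a kinesin of the kinetochore under another name, which is given with the partner genes.

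The 4 control libraries came from CFPAC-1 cells with an empty vector, and the other 4 from CFPAC-1 cells with an ADRA2A transgene. ADRA2A encodes the alpha-2A adrenergic receptor, which couples to Gi and lowers cyclic AMP. All cells were grown in the same serum-containing medium with antibiotics and received no drug. The promoter of the transgene, the number of clones and whether libraries came from separate cultures were not given in the sources used here, so p-values measure the spread between these libraries, which may be technical.

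Mitotic kinesins push spindle poles apart, move chromosomes, trim microtubule ends and build the midzone on which daughter cells separate. Their genes are mostly transcribed in G2 and mitosis, through promoters that carry CCAAT boxes and the cell cycle genes homology region (CHR), so their RNA is high in dividing cells. Transport kinesins carry vesicles, mitochondria and ciliary cargo in all phases, and epithelial cells use them to deliver proteins to the apical and basolateral surfaces.

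Library totals lay between 14427035 and 17528915 rounded counts. ADRA2A had 0 counts in each empty-vector library and 112, 142, 154 and 172 counts in the ADRA2A libraries, as the labels state. The 6 epithelial markers lay between 312 and 5259 counts-per-million (CPM). Markers of other cells were mixed. Under 1 CPM in every library were 4 of 5 fibroblast, 2 of 3 endothelial, 2 of 4 immune and 1 of 4 neuronal markers, with the T cell gene CD3E and the neuronal gene RBFOX3 at 0 counts throughout. Expressed were the immune markers CD68 (mean 91.6 CPM in the empty-vector and 114 CPM in the ADRA2A libraries) and LYZ (31.9 and 89.7 CPM) and the neuronal markers TUBB3 (69.98 and 48.4 CPM), SYT1 (5.40 and 3.30 CPM) and SNAP25 (1.14 and 1.01 CPM). The endothelial marker PECAM1 had 0.773 and 2.44 CPM and the fibroblast marker LUM 1.38 and 0.925 CPM. Their part in the kinesin results was not tested.

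Of the 42 kinesin genes, 32 passed the filter on low counts and entered edgeR's quasi-likelihood fit of all 14785 genes that passed. The 10 that did not pass were KIF2B and KIF4B among the mitotic, KIF1A, KIF5A, KIF5C and KIF17 among the transport, and KIF19, KIF25, KIF26A and KIF26B among the other kinesins. Several of these are known from neurons or testis. KIF2B had 0 counts in all 8 libraries, and KIF26B, the highest of the 10 in total, had between 2 and 12. At an adjusted p-value under 0.05, 24 of the 32 tested kinesins were called, 16 lower and 8 higher in the ADRA2A cells. Over all genes tested the share called was 42.7%, with 21.1% lower and 21.6% higher. These calls divided by class. Of 12 tested mitotic kinesins 11 were lower and 0 higher, of 11 tested transport kinesins 4 were lower and 3 higher, and of 9 tested other kinesins 1 was lower and 5 were higher.

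**Figure D1:**
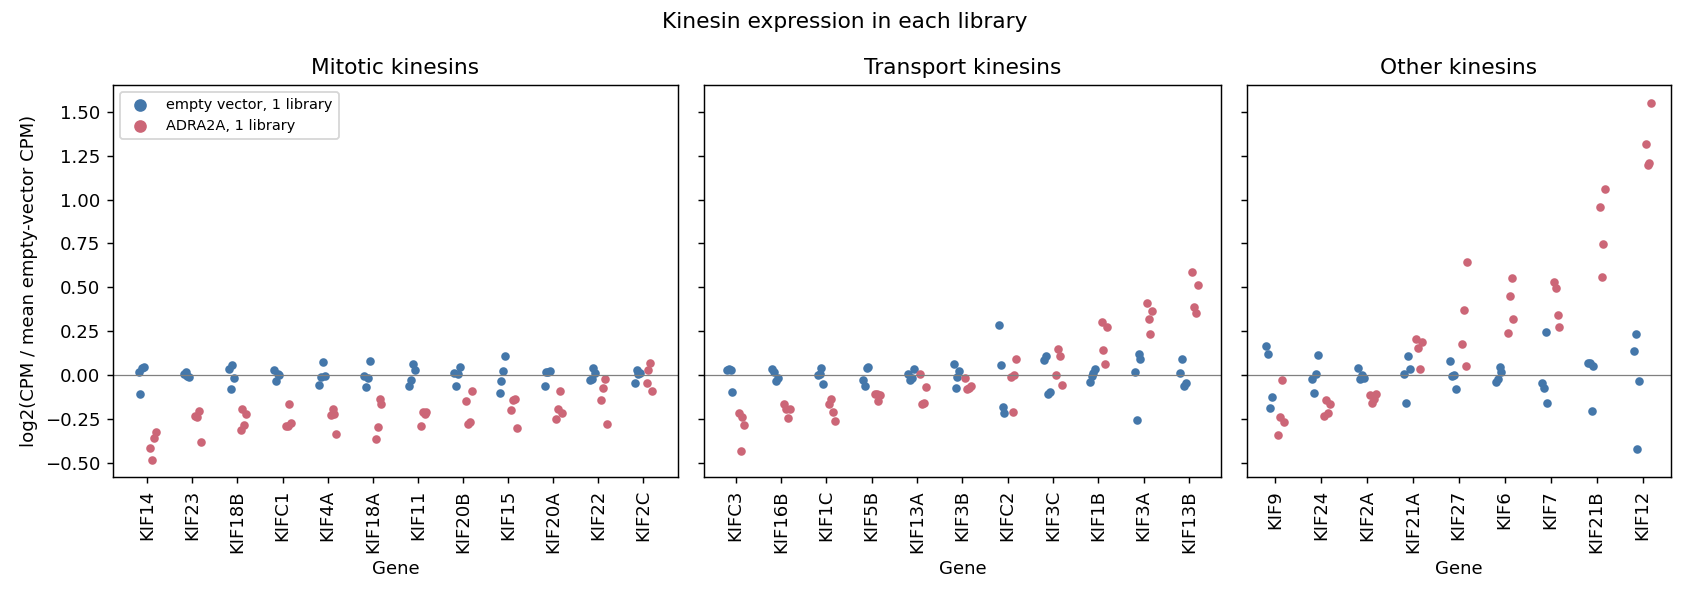
CPM of each tested kinesin in each library, as log2 of its ratio to the gene's empty-vector mean (vertical axis), with genes on the horizontal axis ordered by fold change within each class. Each point is 1 library, blue for empty vector and red for ADRA2A; the red points lie below the blue ones for 10 of 12 mitotic kinesins and spread to both sides in the other classes.

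Of 12 tested mitotic kinesins 11 fell, by modest amounts. All 12 had a negative log2 fold change, with a median of -0.23, where the median over all genes tested was 0.00. The changes lay between -0.39 for KIF14 and -0.01 for KIF2C. In 10 of the 12 no ADRA2A library reached the lowest empty-vector library, while 19.5% of all genes tested were lower without overlap. In bulk RNA, fewer cells in mitosis and less RNA per mitotic cell cannot be told apart.

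The first role is the building of the bipolar spindle. KIF11 (ENSG00000138160.6; chromosome 10, 92574105 to 92655395, plus strand) encodes Eg5, the motor that slides antiparallel microtubules and pushes the poles apart. KIF11 measured 229.7, 235, 251 and 245 CPM in the 4 empty-vector libraries and 196, 207, 206 and 207 CPM in the 4 ADRA2A libraries. All ADRA2A libraries lay below all empty-vector libraries, with the first ADRA2A library a little under the other 3. The group means were 240.0 ± 9.46 and 204 ± 5.19 CPM (mean ± SD of 4 libraries), for a log2 fold change of -0.23 (adjusted p = 3.79e-05 in edgeR, SE = 0.04), so that KIF11 RNA fell by 14.9%. KIFC1 (ENSG00000237649.8; chromosome 6, 33391823 to 33409896, plus strand) encodes HSET, a motor that walks to the minus end, focuses spindle poles and opposes Eg5. KIFC1 measured 134, 129, 133 and 132 CPM in the 4 empty-vector libraries and 108, 108, 118 and 109 CPM in the 4 ADRA2A libraries. Its groups did not overlap either, and the third ADRA2A library was the nearest to the controls. The log2 fold change of KIFC1 was -0.25 (adjusted p = 3.71e-05 in edgeR, SE = 0.04). KIF15, which can keep spindles bipolar when Eg5 is blocked, was less abundant at 37.8 ± 2.35 CPM in the empty-vector libraries (SD, n = 4). It lay between 35.2 and 40.7 CPM in the controls and between 30.6 and 34.4 CPM in the ADRA2A libraries, without overlap. KIF15 fell by 12.5%, with an adjusted p of 0.0146 in edgeR. It was no longer called without empty-vector replicate 4 (edgeR adjusted p = 0.0609) or without ADRA2A replicate 4 (edgeR adjusted p = 0.0553).

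Chromokinesins, which bind chromosome arms, behaved less evenly. KIF4A (ENSG00000090889.12; chromosome X, 70290104 to 70420886, plus strand) encodes a chromokinesin that also sets midzone length with PRC1. KIF4A measured 104, 108, 114 and 108 CPM in the 4 empty-vector libraries and 92.8, 94.9, 93.1 and 86.0 CPM in the 4 ADRA2A libraries. The groups were separate, and the log2 fold change was -0.25 (adjusted p = 1.35e-04 in edgeR, SE = 0.04). Its near-identical intronless copy KIF4B held 0 to 3 counts per library, so few reads were assigned away from KIF4A, although the division of reads between the pair is uncertain. KIF22 (ENSG00000079616.12; chromosome 16, 29790727 to 29805385, plus strand) encodes Kid, which pushes chromosome arms away from the poles. KIF22 measured 109, 109, 115 and 112 CPM in the 4 empty-vector libraries and 101, 106, 109.8 and 91.8 CPM in the 4 ADRA2A libraries. The third ADRA2A library lay among the controls, so the groups overlapped, and the fourth was the lowest of all. KIF22 had a log2 fold change of -0.13 (adjusted p = 0.0435 in edgeR, SE = 0.05), close to the threshold. With DESeq2 its adjusted p was 0.0626, over a range of 0.0129 to 0.168 across the 15 alternatives, and 7 of them did not call it. These were DESeq2 and the edgeR fits without any 1 of the 4 controls (adjusted p = 0.0517 to 0.103), without ADRA2A replicate 1 (0.0976) or without ADRA2A replicate 4 (0.168).

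Motors that shorten microtubules at their ends gave both called members and the exception. KIF18B (ENSG00000186185.13; chromosome 17, 44924709 to 44947773, minus strand) encodes a motor that trims astral microtubules. KIF18B measured 106, 98.1, 108 and 102 CPM in the 4 empty-vector libraries and 83.3, 90.7, 85.1 and 88.7 CPM in the 4 ADRA2A libraries. No ADRA2A library reached the lowest control, and the log2 fold change was -0.25 (adjusted p = 1.00e-04 in edgeR, SE = 0.04). KIF18A, which damps the swinging of chromosomes at the metaphase plate, was about as much changed at lower abundance (33.9 to 37.4 CPM in the controls and 27.5 to 32.2 CPM in the ADRA2A libraries), with a log2 fold change of -0.24 (adjusted p = 0.00472 in edgeR, SE = 0.06). KIF2C (ENSG00000142945.13; chromosome 1, 44739818 to 44767767, plus strand) encodes MCAK, a depolymerase of centromeres and spindle microtubules that works with KIF18B. KIF2C was the 1 tested mitotic kinesin not called and is described in full for that reason, which was chosen after its values were seen. It measured 102, 107, 106 and 106 CPM in the 4 empty-vector libraries and 102, 107, 110.2 and 98.7 CPM in the 4 ADRA2A libraries. The ADRA2A libraries lay on both sides of the controls, and the group means were 105 ± 2.36 and 105 ± 5.19 CPM (mean ± SD of 4 libraries). The log2 fold change of KIF2C was -0.01 (adjusted p = 0.900 in edgeR, SE = 0.04), with a 95% interval of -0.10 to 0.08.

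KIF2C was set against the summed CPM of the other 11 tested mitotic kinesins within each library. The log2 ratio was -3.69, -3.60, -3.69 and -3.67 in the empty-vector libraries and -3.46, -3.41, -3.41 and -3.51 in the ADRA2A libraries. The mean difference was 0.22 on the log2 scale. Since KIF2C was picked as the member not called, this ratio restates that choice and is given as a description.

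The last mitotic role is the midzone and the cut between daughter cells. KIF23 (ENSG00000137807.15; chromosome 15, 69414246 to 69448427, plus strand) encodes MKLP1, the motor of centralspindlin. KIF23 measured 176, 178, 175 and 174 CPM in the 4 empty-vector libraries and 149, 149, 153 and 135 CPM in the 4 ADRA2A libraries. The controls lay close together and the fourth ADRA2A library was the lowest. Its log2 fold change was -0.26 (adjusted p = 2.40e-05 in edgeR, SE = 0.04), and KIF23 RNA fell by 16.6%. KIF20A (ENSG00000112984.12; chromosome 5, 138178719 to 138187723, plus strand) encodes MKLP2, which brings the Aurora B complex to the midzone. KIF20A measured 167, 177, 176 and 177 CPM in the 4 empty-vector libraries and 147, 152, 163 and 149.7 CPM in the 4 ADRA2A libraries. The third ADRA2A library came nearest to the lowest control without reaching it, and the log2 fold change was -0.19 (adjusted p = 8.98e-04 in edgeR, SE = 0.04).

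The largest change of the class was in KIF14 (ENSG00000118193.12; chromosome 1, 200551497 to 200620751, minus strand), a motor that places citron kinase at the midbody. KIF14 measured 71.8, 66.0, 73.1 and 73.2 CPM in the 4 empty-vector libraries and 53.4, 50.9, 55.5 and 56.7 CPM in the 4 ADRA2A libraries. The gap between the groups was wider than the range within either one. The group means were 71.0 ± 3.41 and 54.1 ± 2.55 CPM (mean ± SD of 4 libraries), for a log2 fold change of -0.39 (adjusted p = 2.63e-06 in edgeR, SE = 0.05), so that KIF14 RNA fell by 23.9%. KIF20B, which acts late in cytokinesis, lay between 137 and 149 CPM in the controls and between 118 and 135 CPM in the ADRA2A libraries. It had a log2 fold change of -0.20 (adjusted p = 0.00155 in edgeR, SE = 0.05).

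As a description of the classes, the promoters were searched for the 2 motifs known from genes of G2 and mitosis. Whether these motifs had a part in the fall of the mitotic kinesins was not tested. RefSeq promoters on GRCh38.p14, from 250 bases before to 50 after each start, were found for 34 of the 42 kinesins, 14 of them mitotic, 11 transport and 9 other. The CHR was searched as TTTGAA or TTCGAA and the CCAAT box as CCAAT, on both strands (TTCGAA reads the same on both). No CHR match overlapped a CCAAT match in a kinesin promoter. A CHR match was present in 11 of 14 mitotic kinesins (78.6%), in 1 of 11 transport kinesins (9.09%) and in 1 of 9 others (11.1%), against 19.5% of 27305 genes with a promoter of the same length. A CCAAT box was present in 11 of 14 mitotic, 4 of 11 transport and 3 of 9 other kinesins, against 39.7% of all genes. Both motifs together were found in 10 of 14 mitotic kinesins (71.4%) and 7.85% of all genes. They were also found in 1 of 11 transport kinesins (KIF5B, called lower) and 1 of 9 others (KIF24, not called). Among the 11 mitotic kinesins called lower, 10 held a CHR match and 10 a CCAAT match. Only 1 tested mitotic kinesin was not called, so these counts cannot show whether motif and call go together. Of the mitotic kinesins not tested, KIF4B held both motifs and KIF2B neither. The shorter GGCGG was in all 34 kinesins with a promoter and in 61.5% of all genes. A match is a run of letters and not a shown binding site.

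The 120 bases before the start are given for 3 mitotic kinesins that fell and hold both motifs (KIF11, KIF4A and KIF18A), for KIF20A, which holds 2 CCAAT boxes and no CHR match, for KIF2C, which was not called and holds neither, and for KIF5B, a transport kinesin. They lie at chr10:92593010-92593129, chrX:70289984-70290103, chr11:28108157-28108276, chr5:138178992-138179111, chr1:44739717-44739836 and chr10:32056426-32056545 of GRCh38. The RefSeq starts of KIF11, KIF20A and KIF2C lie inside the spans that GENCODE gives these genes. KIF18A and KIF5B are on the minus strand and the others on the plus strand. Capitals mark CHR and CCAAT matches, read as TTCAAA or ATTGG where the match is on the opposite strand.
KIF11: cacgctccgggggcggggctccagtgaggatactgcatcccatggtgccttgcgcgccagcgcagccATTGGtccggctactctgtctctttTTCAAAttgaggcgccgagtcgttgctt
KIF4A: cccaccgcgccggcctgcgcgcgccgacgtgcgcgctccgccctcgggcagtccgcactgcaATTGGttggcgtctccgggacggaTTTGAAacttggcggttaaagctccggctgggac
KIF18A: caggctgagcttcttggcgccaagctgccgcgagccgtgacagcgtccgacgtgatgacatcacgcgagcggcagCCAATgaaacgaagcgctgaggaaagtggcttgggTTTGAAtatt
KIF20A: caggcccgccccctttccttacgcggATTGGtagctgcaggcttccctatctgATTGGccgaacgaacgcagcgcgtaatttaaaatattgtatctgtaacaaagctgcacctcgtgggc
KIF2C: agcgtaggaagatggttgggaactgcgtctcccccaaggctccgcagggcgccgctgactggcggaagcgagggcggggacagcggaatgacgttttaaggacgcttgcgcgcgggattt
KIF5B: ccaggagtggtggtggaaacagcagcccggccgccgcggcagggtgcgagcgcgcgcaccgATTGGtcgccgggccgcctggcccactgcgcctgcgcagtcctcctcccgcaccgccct
In these stretches the CHR match of KIF11 lies 28 to 23 bases before the start, that of KIF4A 34 to 29 bases and that of KIF18A 10 to 5 bases. In KIF23, which is not printed, it lies 55 to 50 bases before the start, with the CCAAT box just upstream of it at 64 to 60 bases. The CHR matches of KIF14, KIF18B and KIFC1 begin at positions 2, 3 and 5, counted with the start as 1, and so fall outside stretches of this kind. KIF5B has its only CHR match 140 to 135 bases before the start, outside the stretch shown. For KIF2C the sequence shows only that these letters are missing from this window.

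Transport kinesins moved in both directions. Of the 11 tested, 4 fell, 3 rose and 4 were not called, and their median log2 fold change was -0.06. In 7 of the 11 the groups did not overlap, where 39.2% of all genes tested did not. The changes lay between -0.29 for KIFC3 and 0.46 for KIF13B.

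Conventional kinesin is a tetramer of heavy and light chains. Its general heavy chain is KIF5B (ENSG00000170759.11; chromosome 10, 32009015 to 32056425, minus strand), while KIF5A and KIF5C are the neuronal ones. KIF5B measured 456, 445, 477 and 479.6 CPM in the 4 empty-vector libraries and 431, 431, 419.8 and 428 CPM in the 4 ADRA2A libraries. The ADRA2A libraries lay close together and below every control, though only by a little. Its log2 fold change was -0.12 (adjusted p = 0.00578 in edgeR, SE = 0.03), so that KIF5B RNA fell by 7.96%. KIF5A had 1 to 10 counts and KIF5C 0 to 4 counts per library and were not tested.

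The heterotrimeric kinesin of cilia joins KIF3A with KIF3B or KIF3C and the adaptor KIFAP3. KIF3A (ENSG00000131437.15; chromosome 5, 132692628 to 132737638, minus strand) measured 30.5, 25.2, 32.6 and 31.9 CPM in the 4 empty-vector libraries and 40.0, 37.5, 35.4 and 38.7 CPM in the 4 ADRA2A libraries. All ADRA2A libraries exceeded the highest control, and the second control was well below the other 3. KIF3A rose by a log2 fold change of 0.33 (adjusted p = 8.92e-04 in edgeR, SE = 0.07). KIF3B, its usual partner, was not called, with a log2 fold change of -0.06 (adjusted p = 0.258 in edgeR, SE = 0.04) and a 95% interval of -0.14 to 0.03. KIF3C was not called either, at 0.05 (adjusted p = 0.657 in edgeR, SE = 0.09). The adaptor KIFAP3, from the list of partners, rose (log2 fold change 0.27, SE 0.06, edgeR adjusted p = 7.08e-04).

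Monomer-derived vesicle motors of the KIF1, KIF13 and KIF16 types went separate ways. KIF13B (ENSG00000197892.13; chromosome 8, 29067278 to 29263124, minus strand) encodes GAKIN, which carries cargo bound to the scaffold DLG1. KIF13B measured 131, 139, 125 and 126 CPM in the 4 empty-vector libraries and 196, 171, 166 and 186 CPM in the 4 ADRA2A libraries. Every ADRA2A library was above every control by more than the range of the controls. The group means were 130.2 ± 6.14 and 179.6 ± 13.5 CPM (mean ± SD of 4 libraries), for a log2 fold change of 0.46 (adjusted p = 2.52e-07 in edgeR, SE = 0.05). Its paralog KIF13A, which carries recycling endosomes, was not called, at -0.10 (adjusted p = 0.129 in edgeR, SE = 0.05).

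KIF1B (ENSG00000054523.17; chromosome 1, 10210570 to 10381603, plus strand) encodes a motor for mitochondria and synaptic vesicle precursors. KIF1B measured 81.0, 82.7, 83.8 and 85.2 CPM in the 4 empty-vector libraries and 103, 91.9, 86.9 and 101 CPM in the 4 ADRA2A libraries. The groups did not overlap, although the third ADRA2A library was just above the highest control. It rose by a log2 fold change of 0.20 (adjusted p = 0.00338 in edgeR, SE = 0.05). KIF1C (ENSG00000129250.12; chromosome 17, 4997950 to 5028401, plus strand) encodes a fast motor for vesicles and integrins. KIF1C measured 82.9, 83.3, 85.3 and 79.9 CPM in the 4 empty-vector libraries and 74.0, 75.3, 71.6 and 69.2 CPM in the 4 ADRA2A libraries, with all ADRA2A libraries below the controls. Its log2 fold change was -0.19 (adjusted p = 0.00127 in edgeR, SE = 0.04). KIF16B (ENSG00000089177.18; chromosome 20, 16272104 to 16573448, minus strand) encodes a motor of early endosomes. KIF16B measured 24.5, 24.2, 23.4 and 23.7 CPM in the 4 empty-vector libraries and 21.3, 20.9, 20.2 and 20.9 CPM in the 4 ADRA2A libraries. Both groups were tight and separate, and the log2 fold change was -0.20 (adjusted p = 0.0164 in edgeR, SE = 0.06). With DESeq2 the adjusted p of KIF16B was 0.0537, over a range of 0.00998 to 0.0537 across 15 alternatives. Of the 40 tested genes nearest to KIF16B on chromosome 20, 20 on each side, 3 were higher in the ADRA2A cells and the median log2 fold change was -0.37. The part of that stretch in the KIF16B value was not tested. For every other kinesin called, the median of the nearest genes was under 0.2 in size.

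The transport kinesins that walk to the minus end are KIFC2 and KIFC3. KIFC3 (ENSG00000140859.16; chromosome 16, 57758217 to 57863053, minus strand) acts at adherens junctions and in apical delivery. KIFC3 measured 68.9, 69.2, 68.8 and 63.1 CPM in the 4 empty-vector libraries and 58.0, 50.02, 57.3 and 55.3 CPM in the 4 ADRA2A libraries. The second ADRA2A library was the lowest, and the fourth control stood under the other 3 controls but above all ADRA2A libraries. Its log2 fold change was -0.29 (adjusted p = 1.54e-04 in edgeR, SE = 0.05), the lowest of the class. KIFC2 was not called, at -0.03 (adjusted p = 0.837 in edgeR, SE = 0.10), and its controls ranged from 15.8 to 22.4 CPM.

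Among the other kinesins 2 rose by more than any mitotic or transport kinesin. In 4 of the 9 tested all ADRA2A libraries were above all controls, and in 2 all were below. Over all genes tested these shares were 19.7% and 19.5%. KIF12 (ENSG00000136883.14; chromosome 9, 114086126 to 114099292, minus strand), known from kidney and liver epithelium and mutated in an inherited cholestasis, measured 13.1, 13.98, 8.89 and 11.7 CPM in the 4 empty-vector libraries and 29.7, 27.3, 27.5 and 34.9 CPM in the 4 ADRA2A libraries. The ADRA2A libraries all had at least 27.3 CPM while the highest control had 13.98 CPM. The group means were 11.9 ± 2.23 and 29.9 ± 3.54 CPM (mean ± SD of 4 libraries), for a log2 fold change of 1.33 (adjusted p = 8.33e-09 in edgeR, SE = 0.11). KIF21B (ENSG00000116852.14; chromosome 1, 200969390 to 201023714, minus strand) encodes a motor that limits microtubule growth, best known from neurons and T cells. KIF21B measured 5.97, 5.97, 4.94 and 5.89 CPM in the 4 empty-vector libraries and 11.1, 8.38, 9.56 and 11.9 CPM in the 4 ADRA2A libraries. The second ADRA2A library was the nearest to the controls, and no libraries overlapped. KIF21B rose by a log2 fold change of 0.85 (adjusted p = 2.03e-05 in edgeR, SE = 0.13) at a low level of 85 to 188 counts per library. Its paralog KIF21A (ENSG00000139116.18; chromosome 12, 39293228 to 39443390, minus strand) measured 53.9, 48.1, 57.8 and 54.9 CPM in the 4 empty-vector libraries and 61.8, 59.7, 55.0 and 61.2 CPM in the 4 ADRA2A libraries. The groups overlapped, and the log2 fold change was 0.14 (adjusted p = 0.0491 in edgeR, SE = 0.06). With DESeq2 the adjusted p of KIF21A was 0.0882, over a range of 0.0202 to 0.177, and 9 of 15 alternatives did not call it. Among these were the edgeR fits without empty-vector replicate 1, 2 or 4 or without ADRA2A replicate 1, 2 or 4, with adjusted p-values between 0.0667 and 0.177.

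KIF6, KIF7, KIF9, KIF24 and KIF27 of this class also have known roles at cilia. KIF7, which regulates GLI proteins at the tip of the cilium, had a log2 fold change of 0.41 (adjusted p = 0.0107 in edgeR, SE = 0.12) and KIF6, a motor of motile cilia, one of 0.40 (adjusted p = 0.00552 in edgeR, SE = 0.11). KIF7 lay between 5.63 and 7.44 CPM in the controls and between 7.59 and 9.07 CPM in the ADRA2A libraries, and KIF6 between 6.91 and 7.32 and between 8.37 and 10.4 CPM. For both, all ADRA2A libraries were above all controls. KIF27 and KIF9, also of motile cilia, were not called, at 0.33 (adjusted p = 0.0614 in edgeR, SE = 0.14) and -0.21 (adjusted p = 0.379 in edgeR, SE = 0.18). Without ADRA2A replicate 3, KIF27 was called, with an edgeR adjusted p of 0.0242. KIF24, which restrains cilium formation, was not called, at -0.19 (adjusted p = 0.0916 in edgeR, SE = 0.09), although its groups did not overlap. KIF2A, a depolymerase of spindle poles and neurons related to KIF2C, fell by 8.57% with an adjusted p of 0.0130 in edgeR. The use of strand in counting was not given in the sources used here, and KIF7 shares 589 of its 5446 annotated exon bases with the opposite-strand gene TICRR, which had a mean of 729.6 counts against 116 for KIF7. KIF2A likewise shares 2446 of 13050 exon bases with DIMT1, which fell by 0.26 on the log2 scale (edgeR adjusted p = 0.00782). Among others with such overlap, KIF9 shares 178 of 5878 exon bases with KLHL18 (mean of 228 counts against 52). KIF24 shares 144 of 6479 with UBAP1 (521.4 counts against 190.5), and KIF20A 132 of 3852 with BRD8 (1840 against 2605). The part of these opposite-strand genes in the kinesin values was not tested.

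Levels between genes were compared in TPM (counts divided by the length of the canonical transcript and scaled to the same total in each library, computed here). On this scale KIF5B was the most abundant kinesin, at 181 ± 7.44 in the empty-vector libraries (SD, n = 4). Next came 5 mitotic kinesins, KIF20A at 129 ± 3.26, KIFC1 at 126 ± 3.46, KIF22 at 123 ± 2.81, KIF23 at 109.9 ± 1.35 and KIF11 at 109.5 ± 4.09. Within this group KIF20A and KIFC1 were within their spread of each other, as were KIF23 and KIF11. In the ADRA2A libraries KIF5B stood at 168 ± 4.02 and KIF20A at 114 ± 4.16, while KIF22 at 113 ± 7.21 lay above KIFC1 at 107 ± 3.77 by less than its SD. The median level of the tested mitotic kinesins in the controls was 71.1, that of the transport kinesins 20.3 and that of the others 3.15.

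Summed per length over all members, mitotic kinesins held 907, 889, 919 and 930.4 TPM in the empty-vector libraries and 794, 795, 819 and 784 in the ADRA2A libraries. The 2 sets were far apart relative to the range within each. The transport sum was 403.9 ± 8.66 and 394.4 ± 15.96 TPM (SD, n = 4 each), and its libraries overlapped. The sum of the others was 72.4 ± 2.39 and 93.8 ± 6.32 TPM, with no overlap. Mitotic kinesins made up 65.7% ± 0.411 of the kinesin level per length in the controls and 62.0% ± 1.37 in the ADRA2A cells (SD, n = 4 each). Of all counts in a library, kinesins of every class held 0.271% ± 0.00414 in the controls and 0.254% ± 0.00231 in the ADRA2A cells (SD, n = 4 each). These sums are descriptions of chosen members and were given no test.

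**Figure D2:**
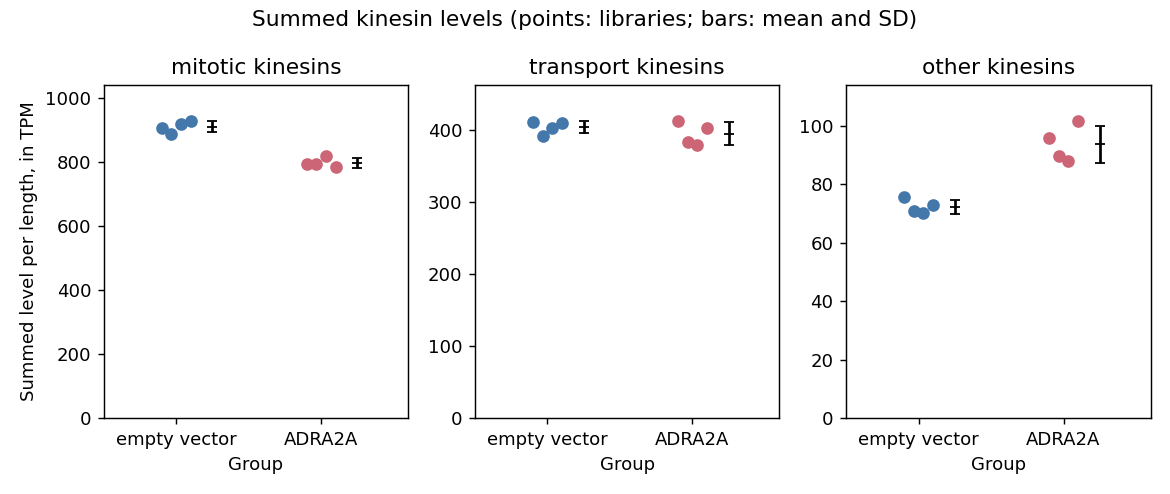
Summed level per transcript length, in TPM (vertical axis from 0), for each class in each library. Points are libraries and black bars the mean and SD of 4; the mitotic sum went from 911.5 to 798.0, the transport sum from 403.9 to 394.4 and the sum of the others from 72.4 to 93.8.

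The contrast of the classes was summarised by the difference of their medians. The median log2 fold change of the mitotic kinesins was lower than that of the transport kinesins by 0.17 (-0.17 on the log2 scale). Per library, the mitotic minus transport median of centred log2 CPM was 0.03, 0.05, 0.11 and 0.08 in the controls and -0.14, -0.05, -0.01 and -0.09 in the ADRA2A libraries. All 4 controls were above all 4 ADRA2A libraries. No test was made on these medians, since the members were chosen.

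**Figure D3:**
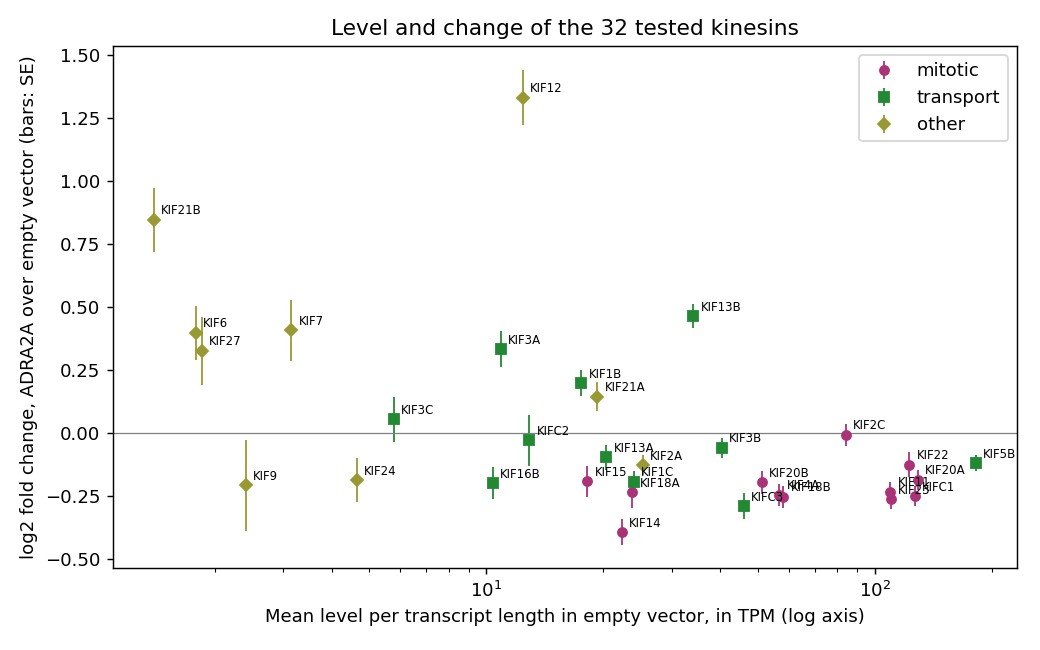
Log2 fold change with its SE (vertical axis) against the mean level per transcript length in the empty-vector libraries (horizontal, log axis) for the 32 tested kinesins, marked by class. The mitotic kinesins lie in a band from -0.39 to -0.01, and KIF12 at 1.33 and KIF21B at 0.85 are the highest.

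Paralogs within a subfamily were compared by their log2 ratio in each library, which does not depend on library scaling. There were 10 pairs of tested paralogs, compared by a two-sided exact permutation test. The p-values were adjusted over 11 ratios, the pairs and the KIF2C ratio described above. Since KIF2C was picked with its values known, the small p of its ratio makes the lowest adjusted p-values of the pairs smaller. The ratio of KIF13B to KIF13A was 1.29, 1.40, 1.24 and 1.21 in the controls and 1.87, 1.84, 1.80 and 1.87 in the ADRA2A libraries, higher by 0.56. That of KIF21B to KIF21A was higher by 0.69. The ratio of KIF1C to KIF1B changed by -0.39 and that of KIF3B to KIF3A by -0.40. In each of these 4 pairs every ADRA2A library lay on one side of every control, with p = 0.0286 in the exact test and 0.0629 after adjustment over the 11 ratios, so none passed the threshold. For 4 libraries against 4 no smaller p is possible.

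For the 2 mitotic pairs no change in ratio was detected. The ratio of KIF18B to KIF18A changed by -0.01 (exact permutation p = 0.886, adjusted 0.943) and that of KIF20B to KIF20A by -0.01 (exact permutation p = 0.943, adjusted 0.943). The spread of the KIF20B to KIF20A ratio was 0.07 in the controls and 0.15 in the ADRA2A libraries (SD, n = 4 each), which limits the size of a change that could be detected. The other 4 pairs, KIF2C to KIF2A, KIF3C to KIF3A, KIF3C to KIF3B and KIFC3 to KIFC2, had adjusted p-values between 0.157 and 0.314 in the exact permutation test.

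**Figure D4:**
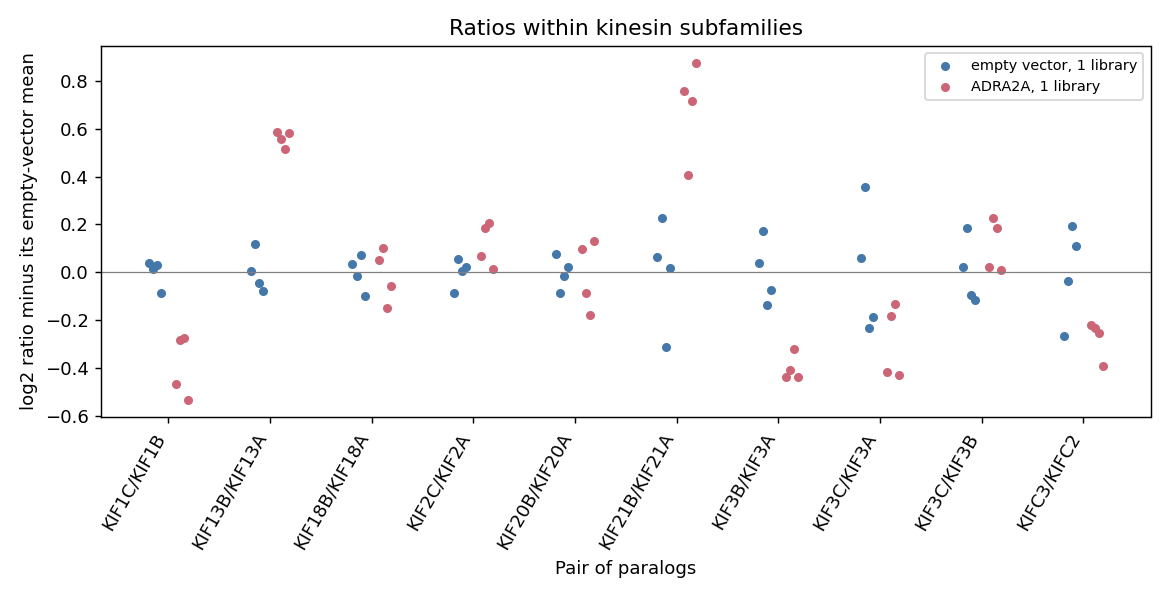
Log2 ratio of CPM between paralogs in each library, minus the mean of the empty-vector libraries (vertical axis), for 10 pairs. Blue points are empty-vector and red points ADRA2A libraries; they separate for KIF1C/KIF1B, KIF13B/KIF13A, KIF21B/KIF21A and KIF3B/KIF3A and are mixed for KIF18B/KIF18A and KIF20B/KIF20A.

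The genes that work with mitotic kinesins moved the same way. Of 24 partners and regulators, all tested, 20 were lower and 0 higher (median log2 fold change -0.24), where 21.1% of all genes tested were lower. Between 16 and 20 were lower over the alternative fits, 18 of them with DESeq2, and 0 were higher in any. The 3 smallest p-values were those of ANLN, which scaffolds the contractile ring (-0.44, SE 0.03, edgeR adjusted p = 2.60e-09), of TPX2, which brings Aurora A to the spindle (-0.37, SE 0.04, edgeR adjusted p = 5.69e-08), and of AURKA itself (-0.43, SE 0.04, edgeR adjusted p = 7.97e-08). CENPE, the kinetochore kinesin left out by the symbol rule, fell too (-0.42, SE 0.04, edgeR adjusted p = 1.87e-07). The direct partners of KIF23 and KIF14 had smaller values, with RACGAP1, which joins KIF23 in centralspindlin (-0.08, SE 0.04, edgeR adjusted p = 0.173), and CIT, the citron kinase (-0.07, SE 0.05, edgeR adjusted p = 0.214), neither of them called. The transcription factors MYBL2 and FOXM1, which act on promoters of G2 and mitosis, fell (-0.40, SE 0.04, edgeR adjusted p = 9.76e-08 and -0.32, SE 0.05, edgeR adjusted p = 3.11e-05). Of the regulators LIN54 and LIN9 on the same list, LIN54 fell by less (-0.14, SE 0.05, edgeR adjusted p = 0.0285). LIN9 was not called (-0.09, SE 0.07, edgeR adjusted p = 0.348).

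Genes of the S phase were also lower. Of 18, all tested, 16 were lower and 0 higher, with a median of -0.29, led by PCNA (-0.55, SE 0.04, edgeR adjusted p = 4.92e-10), TYMS (-0.64, SE 0.06, edgeR adjusted p = 1.87e-08) and CDC6 (-0.43, SE 0.04, edgeR adjusted p = 2.02e-07). Their part in the result for the mitotic kinesins was not tested. Of 12 alpha and beta tubulin genes, the building blocks of the track, 10 were tested and 9 were lower and 0 higher, with a median of -0.34. Beside the counts for the S phase and the tubulin genes, 21.1% of all genes tested were lower and 21.6% higher. TUBB2A (-0.92, SE 0.10, edgeR adjusted p = 2.25e-07), TUBB3 (-0.53, SE 0.06, edgeR adjusted p = 1.23e-06) and TUBB4B (-0.34, SE 0.04, edgeR adjusted p = 1.64e-06) had the smallest p-values. TUBB2B, a close copy of TUBB2A at 2.31 ± 0.389 CPM in the controls (SD, n = 4), had the lowest value (-1.24, SE 0.26, edgeR adjusted p = 6.01e-04), and reads of tubulin paralogs are hard to separate.

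Of 17 partners of the transport kinesins 15 were tested, 8 higher and 4 lower, with a median of 0.15. In the whole table the shares called were 21.6% higher and 21.1% lower. KLC1, a light chain of conventional kinesin, fell (-0.31, SE 0.05, edgeR adjusted p = 6.98e-05), whereas PLEKHM2, which links lysosomes to kinesin (0.26, SE 0.05, edgeR adjusted p = 1.94e-04), and the membrane scaffold KIDINS220 (0.24, SE 0.05, edgeR adjusted p = 5.58e-04) rose. The lowest value of the list was that of the light chain KLC3, at 2.94 ± 0.601 CPM in the controls (SD, n = 4), whose groups overlapped (-0.92, SE 0.26, edgeR adjusted p = 0.00808). The light chain KLC4 rose (0.25, SE 0.06, edgeR adjusted p = 0.00275). For dynein and dynactin, the motor of the opposite direction, 21 of 22 genes were tested, with 5 lower, 4 higher and a median of -0.01. This share called is near the 42.7% over all genes tested, as are both directions to 21.1% and 21.6%, so the counts show nothing particular to these genes. The dynein heavy chain DYNC1H1 fell (-0.39, SE 0.05, edgeR adjusted p = 2.55e-06), as did the dynactin filament gene ACTR1A (-0.27, SE 0.04, edgeR adjusted p = 1.03e-05), while DCTN4 rose (0.26, SE 0.04, edgeR adjusted p = 5.81e-05). The highest value was that of the intermediate chain DYNC1I1, at 1.23 ± 0.308 CPM in the controls (SD, n = 4; 1.14, SE 0.25, edgeR adjusted p = 0.00112).

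**Figure D5:**
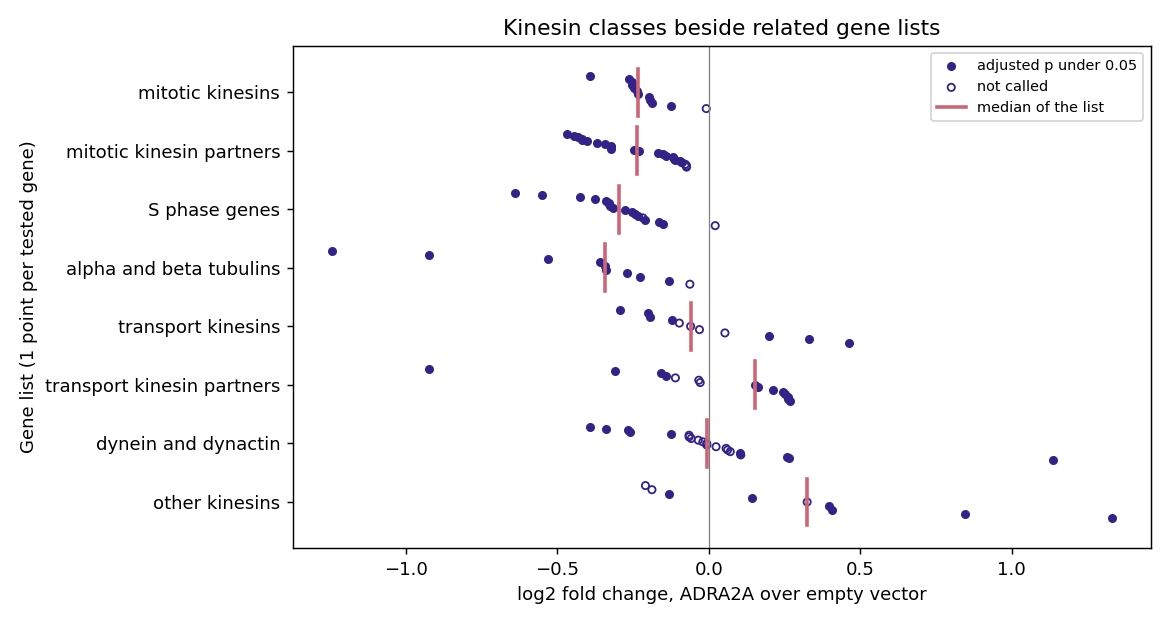
Log2 fold change of every tested gene (horizontal axis) in the 3 kinesin classes and 5 related lists (vertical axis). Filled points had an adjusted p under 0.05 and red lines are medians; these were -0.23 for mitotic kinesins, -0.24 for their partners, -0.29 for S phase genes, -0.34 for tubulins, -0.06 for transport kinesins, 0.15 for their partners, -0.01 for dynein and dynactin and 0.33 for the other kinesins.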

How the data were processed

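Per the labels' protocols, TRIzol was used to isolate RNA and the sequencer was a NextSeq from Illumina. The authors deposited RSEM estimated counts per gene, not scaled between libraries. Between 4.61% and 4.90% of the entries in a library had decimals. Cutadapt, STAR, RSEM, DESeq2 and the build hg38 are named in the submitters' processing notes. Their versions, the annotation and the use of strand were not given in the sources used here.

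Rounding turned the estimated counts into whole numbers. The low-count filter was filterByExpr of edgeR 4.0.16 (R 4.3.3). Libraries were scaled by TMM factors between 0.994 and 1.01, and group was the only term of the quasi-likelihood fit. Benjamini-Hochberg adjustment ran over the 14785 genes kept, and calls used a threshold of 0.05. TPM values were computed from the estimated counts before rounding and from transcript lengths. The SE of a log2 fold change is its size divided by the square root of F. On simulated counts the test recovered 70% of genes changed 1.25-fold and 95% of those changed 2-fold. The simulation gave every gene the same spread and changed few genes, unlike these data. Most kinesin changes were smaller than 1.25-fold, so these shares do not carry over to them. Positions and canonical transcripts came from GENCODE 44 on GRCh38, which matched 58517 genes by identifier (99.4%). Promoters came from RefSeq on GRCh38.p14.

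Full values were given by a rule: the 7 mitotic and 7 transport kinesins with the smallest p-values, other kinesins called with a log2 fold change of at least 0.5 in size, members whose call changed under DESeq2 or the replicate block, and the first 3 genes of each related list by p-value. KIF2C, the ratios, the remaining members described and further list genes were named with their values known. The members and lists were chosen with earlier results of these data known. Alternatives were DESeq2 1.42.0, other scaling factors, limma 3.58.1 with voom, other filters, a block for the replicate number, and 8 fits that omitted 1 library each. Replicates differed from each other by more than sampling noise, with a mean chi-square per gene of at least 2.12 in every pair of a group.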

Additional observations from a re-analysis of the deposited data

Results flagged for a closer look

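In 5 of 64 groups of 4 libraries (32 tested kinesins in 2 groups), 1 library stood apart from the other 3 by a large part of the whole range. Chance flags about 1 in 20 groups. KIFC1 in ADRA2A library 3 was at 117.7 CPM against 109.3 for the next (gap over range 0.863). KIF11 in ADRA2A library 1 was at 196 CPM against 205.9 (0.869). KIF20A in empty-vector library 1 was at 167 CPM against 176 (0.913). KIFC3 in empty-vector library 4 was at 63.1 CPM against 68.8 (0.929), and KIF21B in empty-vector library 3 was at 4.94 CPM against 5.89 (0.920). The 5 values came from 5 different libraries, and in each of these genes the groups stayed separate.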

How the results depend on the processing

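Over the 32 tested kinesins and 15 alternative fits, 455 of 480 results kept their direction and their side of the threshold, and 25 kinesins did so in all 15. Of the rest, 19 lost the call, 1 gained it and 5 changed sign. The losses were in KIF15 (2 fits), KIF16B (1), KIF21A (9) and KIF22 (7), and KIF27 was called without ADRA2A replicate 3. The changes of sign were in KIF2C, between -0.035 and 0.020 when single libraries were omitted, and in KIFC2, between -0.10 and 0.080; neither was called in any fit. The mitotic kinesins called lower numbered 11, and between 9 and 11 over all alternatives, 9 without empty-vector replicate 4 or without ADRA2A replicate 4. The mitotic minus transport difference of medians was -0.17, and between -0.20 and -0.13 over the fits that left out 1 library, furthest from the full value without empty-vector replicate 3. The replicate number as a block gave 11 mitotic kinesins lower and 6400 genes called over the whole table against 6314, and changed no call of a kinesin. No pairing of the libraries by number was seen: deviations of same-numbered libraries correlated between -0.04 and 0.07, and those of other pairs between -0.07 and 0.11. With 4 same-numbered pairs this cannot exclude a pairing. Leaving out libraries was added for the 11 ratios after the data were seen, and 82 of 88 kept their direction. No ratio passed the threshold with all libraries or in these fits, where the lowest adjusted p was 0.0524 (exact permutation test). With so few libraries the exact test could hardly pass it, so the side of the threshold says nothing about stability. The exceptions were KIF18B to KIF18A, between -0.051 and 0.032, and KIF20B to KIF20A, between -0.055 and 0.047. Depth limits KIF9, with 40 to 67 counts per library, and the 10 kinesins not tested.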
